A study of Mus musculus with 6 samples.

Results

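The 10 genes described here are immediate early genes: the EGR genes Egr1, Egr2 and Egr3, the FOS genes Fos, Fosb and Fosl1, the JUN genes Jun and Junb, and the immediate early response genes Ier2 and Ier3. They were taken as a named list, and each was found through the RefSeq accession of its probe, because the array files carry accessions and no gene symbol. All 10 matched, each with 1 probe, among the 36717 features of the array. Of the 10, 8 were bright enough to be tested. The cells were neural precursor cells isolated from the dentate gyrus of male C57BL6/JRj mice 8 weeks old and grown as an attached layer in medium with EGF and bFGF, 20 ng/ml each. They received human LDL, the low-density cholesterol carrier of blood plasma, or saline as its control, and RNA was taken 48 h later. The treatment protocol in the labels gives 100 ug/ml LDL, but the unit of volume is not the same in the sample descriptions, so the dose is uncertain. There were 3 LDL arrays and 3 saline arrays, from independent experiments on different passages, and how many animals gave the cells is not stated in the labels. Both groups carried the mitogens and differed, by the labels, in the added LDL alone.

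Immediate early genes are transcribed within minutes of a growth factor or of synaptic activity, without the need for new protein, and their mRNAs decay quickly. EGF and FGF receptors reach them through the ERK kinases, which act on ternary complex factors bound with serum response factor (SRF) at CArG boxes, while cAMP and calcium signals act through CREB. EGR proteins bind GC-rich DNA by zinc fingers. FOS and JUN proteins pair through leucine zippers into AP-1, whose consensus sites fall within the broader pattern TGANTCA, where N is any base. In the hippocampus, Egr1 and Fos are widely used as markers of recently active neurons.

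The promoters of Egr2 and Fos are shown because these genes had the largest differences among members measured on all 6 arrays, and in opposite directions. Sequences are from RefSeq, build GRCm38.p6, run 5′ to 3′ on the plus strand, which is the strand of both genes, and cover 250 bases before and 50 after an annotated start. Capitals mark a CArG box in Egr2 and a TATAAA in Fos.
Egr2, chr10:67537619-67537918: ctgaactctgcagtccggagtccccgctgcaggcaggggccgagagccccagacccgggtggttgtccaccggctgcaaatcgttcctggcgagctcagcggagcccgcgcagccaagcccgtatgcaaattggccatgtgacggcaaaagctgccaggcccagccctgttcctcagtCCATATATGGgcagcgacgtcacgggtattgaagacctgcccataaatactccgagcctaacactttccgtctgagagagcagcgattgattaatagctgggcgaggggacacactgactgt
Fos, chr12:85473640-85473939: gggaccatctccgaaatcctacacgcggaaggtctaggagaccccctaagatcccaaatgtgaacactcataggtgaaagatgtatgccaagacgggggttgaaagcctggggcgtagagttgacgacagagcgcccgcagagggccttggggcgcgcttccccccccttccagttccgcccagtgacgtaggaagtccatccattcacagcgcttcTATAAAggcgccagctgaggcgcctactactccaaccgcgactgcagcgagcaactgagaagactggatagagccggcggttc

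The sequence table held such windows for 6 members: Egr2, Fos, Fosb, Jun, Junb and Ier3. The CArG box in the Egr2 window lies at bases -72 to -63 from that start, and 4 of the 5 Egr2 windows held a CArG box, 3 of them the same box. None of the other 5 members had one in its window, and 1.63% of all 32851 windows did. TGANTCA, a pattern broader than the AP-1 consensus, and TGACGTCA, the CRE motif, were in no member's window, against 7.81% and 1.79% of all windows. GCGNGGGCG, the EGR motif, was in the Fosb window, against 5.55% of all windows. TATAAA was in the windows of Fos and Junb, against 13.6% of all windows. It lay at bases -33 to -28 in Fos, but at bases 1 to 6 in Junb, on the annotated start itself. Both strands were searched, no motif hit in these windows overlapped another, and the absence of a match concerns these windows alone.

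Signals are given as normalized log2 signal, which is the log2 of the background-corrected spot signal minus the log2 of the 75th percentile of that array. A value of 0 equals that percentile, and values of different probes are not comparable in level. The share of the 55681 probes detected well above background was 55.9% to 66.9% per array. The precursor markers Nes, Sox2, Pax6, Fabp7, Vim and Hes5 were well above background on all 6 arrays, and Prom1 on 4. Of 8 neuronal markers, Dcx and Neurod1 were so on no array. The other neuronal markers, Tubb3, Rbfox3, Snap25, Map2, Syn1 and Syt1, were so on all 6.

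After LDL, the EGR genes measured were lower and Fos was higher on every array than on any saline array, but none of the 8 members tested passed correction over all genes. Egr2 was 1.77-fold lower, Egr1 1.38-fold lower and Fos 1.52-fold higher. Jun, Junb, Fosb and Ier2 had groups that overlapped, and Fosl1 was near background in saline cells. Limma (two-sided, Benjamini-Hochberg over 24225 features) called 0 of the 8 at an adjusted p of 0.05, with a smallest adjusted p of 0.334. The background at that threshold was 0.12% of all features. At an unadjusted p of 0.05, 3 of the 8 passed, against 7.46% of all features. Groups did not overlap for 3 of the 8, against 14.6% of all features. LDL was below saline for Egr1 and Egr2 among them, against 8.77% of all features, and above it for Fos, against 5.82%. These 3 genes were also the ones with an unadjusted p below 0.05. The median log2 fold change of the 8 was -0.19, against -0.03 over all features tested. These are bulk cultures, so fewer cells with an mRNA and less of it per cell cannot be told apart.

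Egr2 (Krox-20), a zinc-finger factor known from hindbrain patterning and myelination, had normalized log2 signals of -0.23, 0.09 and 0.30 in LDL replicates 1 to 3, against 0.63, 1.07 and 0.93 in saline replicates 1 to 3. The highest LDL array lay below the lowest saline array. The means were 0.05 ± 0.27 in LDL cells and 0.88 ± 0.23 in saline cells (SD, n = 3 each). This gave Egr2 a log2 fold change of -0.82 (SE 0.18, 95% interval -1.24 to -0.40), with an adjusted p of 0.334 in limma. Of all features tested, 1.22% had a larger change in size, whichever its sign.

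Egr1 (Zif268), the EGR factor most used as a marker of neuronal activity, had normalized log2 signals of 4.24, 4.15 and 4.14 in LDL cells, against 4.92, 4.52 and 4.51 in saline cells. The LDL arrays were tightly grouped, with an SD of 0.05, against an SD of 0.23 in saline cells, where replicate 1 stood highest. For Egr1 the log2 fold change was -0.47 (SE 0.14, 95% interval -0.79 to -0.15), with an adjusted p of 0.4996 in limma. It was -0.33 without saline replicate 1, the array that widened the difference most.

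Egr3, the third EGR factor of the list, stayed near background on all 6 arrays, well above it on none. Its values ran from -7.38 to -5.53 in LDL cells and from -7.22 to -5.30 in saline cells, and no difference is drawn from them.

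Fos, the founding FOS protein of AP-1, is printed as 10 spots on each array, so its level on an array is known better than that of the other members. The SD between spots lay between 0.03 and 0.18, and 4 spots on saline replicate 3 were left out for an outlier flag. Normalized log2 signals were -0.99, -1.51 and -1.45 in LDL replicates 1 to 3, against -1.54, -2.19 and -2.02 in saline replicates 1 to 3. The groups did not overlap, but LDL replicate 2 and saline replicate 1 were 0.04 apart, and replicate 1 was the highest of its group in both. Fos had a log2 fold change of 0.60 (SE 0.21, 95% interval 0.10 to 1.10), with an adjusted p of 0.578 in limma. Without LDL replicate 1 it was 0.44, and the unadjusted p in limma was then 0.0847. That p was also above 0.05 when saline replicate 2 or saline replicate 3 was left out.

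Fosb, whose truncated splice form persists in neurons after repeated activity, varied little between arrays. Its normalized log2 signals were -1.06, -1.20 and -1.09 in LDL cells, against -0.93, -1.07 and -0.93 in saline cells, and LDL replicate 1 lay above saline replicate 2. Its log2 fold change was -0.14 (95% interval -0.37 to 0.10), with an adjusted p of 0.824 in limma.

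Fosl1 (FRA-1), a FOS protein that accumulates during sustained ERK signalling, was well above background on all 3 LDL arrays and on 1 of the 3 saline arrays, so it entered the test through the LDL group. Normalized log2 signals were -3.81, -4.32 and -4.44 in LDL cells, against -4.36, -4.56 and -6.83 in saline cells. Saline replicate 3 stood far below all others, and saline replicate 1 lay above LDL replicate 3. On all 6 arrays the log2 fold change of Fosl1 was 1.06, with a 95% interval of -0.43 to 2.55 and an adjusted p of 0.782 in limma, and it was 0.27 without saline replicate 3. With normexp background correction and quantile normalization it was 0.35, and with the authors' values 0.67.

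Jun, the main partner of the FOS proteins, had similar means in both groups. It gave normalized log2 signals of 2.92, 2.52 and 2.64 in LDL cells, against 2.82, 2.63 and 2.70 in saline cells. The LDL arrays spanned the whole saline range. For Jun the log2 fold change was -0.02, with a 95% interval of -0.34 to 0.29 and an adjusted p of 0.983 in limma. Its sign turned with median scaling, and on leaving out LDL replicate 2, LDL replicate 3 or saline replicate 1.

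Junb, a JUN protein that is a weaker activator than Jun, had -4.14, -4.71 and -4.44 in LDL cells, against -4.28, -4.05 and -4.12 in saline cells, on the normalized log2 scale. LDL replicate 1 lay within the saline range and the other LDL arrays lay below it. For Junb the log2 fold change was -0.28 (95% interval -0.66 to 0.10), with an adjusted p of 0.777 in limma. It was -0.42 without LDL replicate 1, -0.14 without LDL replicate 2, -0.03 with normexp and quantile normalization and -0.04 with the authors' values.

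Ier2 encodes a small nuclear protein and Ier3 (IEX-1) a regulator of survival and apoptosis. Ier2 had normalized log2 signals of -2.76, -3.02 and -2.74 in LDL cells, against -2.90, -2.41 and -2.47 in saline cells. Saline replicate 1 lay within the LDL range. The log2 fold change of Ier2 was -0.24 (95% interval -0.63 to 0.14, adjusted p = 0.806 in limma), and -0.40 without saline replicate 1 and -0.15 without saline replicate 2. Ier3 was well above background on LDL replicate 1 alone, with -4.42, -5.68 and -5.66 in LDL cells, against -5.47, -5.99 and -6.93 in saline cells, and was not tested.

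**Figure D1:**
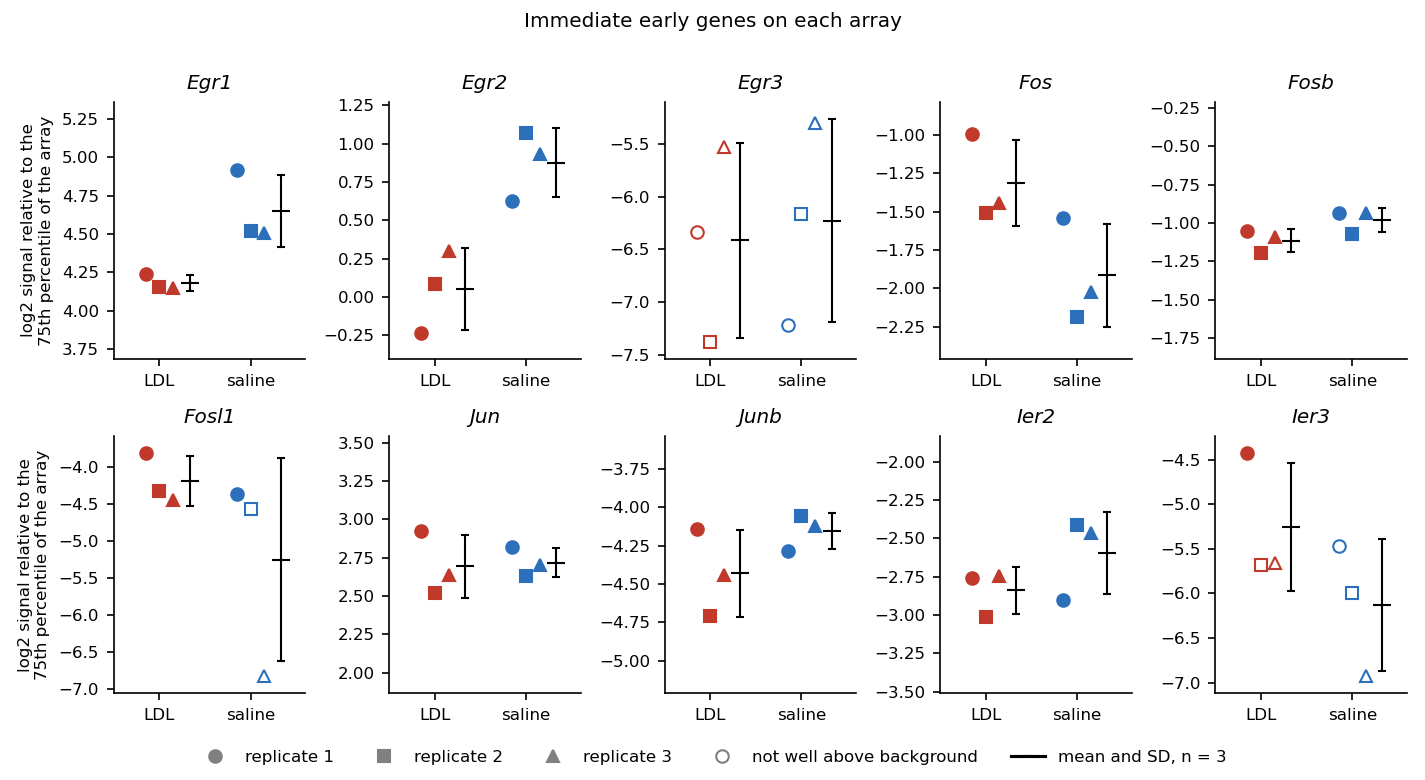
Normalized log2 signal (y axis, scaled to the array's 75th percentile) of the 10 genes on the 3 LDL arrays (red, left) and the 3 saline arrays (blue, right), with a y axis per gene, replicate number by symbol, open symbols where the probe was not well above background, and bars for mean and SD. The groups are apart for Egr1, Egr2 and Fos, and Egr3 is open on all 6 arrays.

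**Figure D2:**
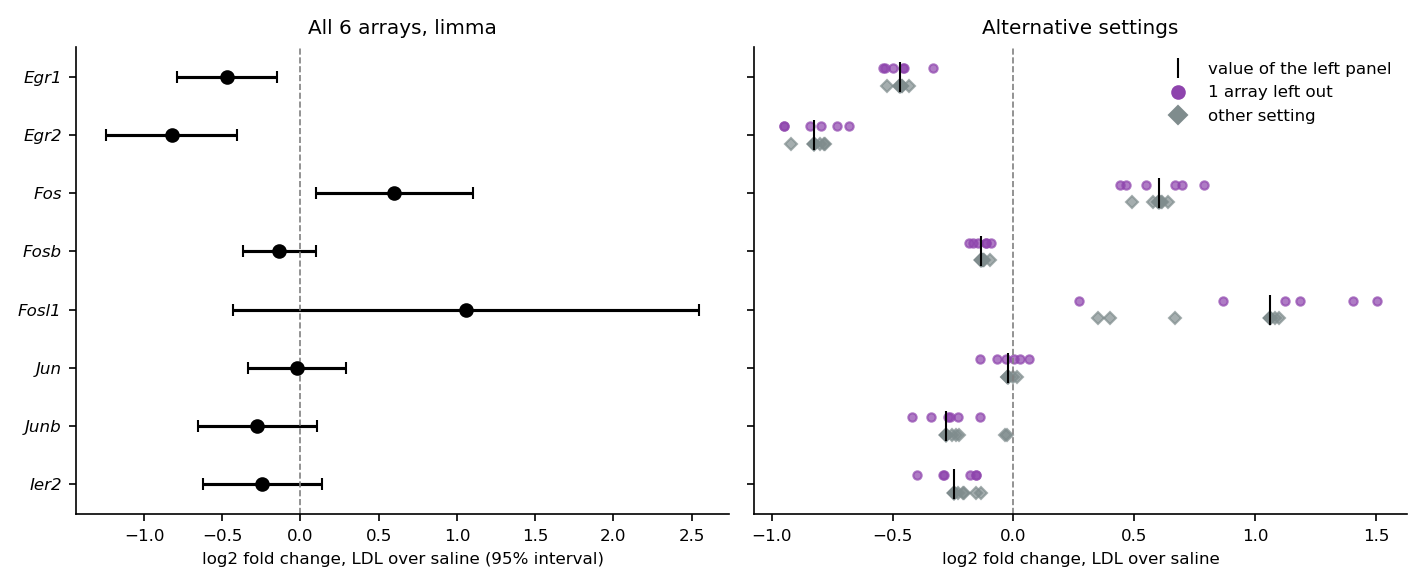
Log2 fold change of LDL over saline (x axis) for the 8 genes tested, on the left with the 95% interval of limma on 6 arrays, on the right under each alternative setting (purple, 1 array left out; grey, other settings). The intervals of Egr1, Egr2 and Fos lie to 1 side of 0, while that of Fosl1 runs from -0.43 to 2.55.

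The 6 arrays lay on 1 slide scanned at 1 time, with 2 arrays of each group in slide row 1 and 1 of each in slide row 2. The log2 differences had the same direction in both rows for Egr2, with -0.92 in row 1 and -0.63 in row 2, for Egr1, with -0.52 and -0.36, and for Fos, with 0.61 and 0.58. Fosl1 had 0.40 in row 1 and 2.38 in row 2, where the saline array is replicate 3.

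The members did not share 1 pattern over the arrays. Likeness was measured as the root mean square difference of mean-centred log2 values over the 6 arrays, a description in which the arrays and their scaling are shared by all genes. Among members, Fosb and Jun were the closest pair at 0.11, followed by Junb and Ier2 at 0.14, and Egr2 and Fos differed by 0.84, against 0.37 for Egr2 and Egr1. Distances to Fosl1, from 0.78 for Fos to 1.31 for Egr2, rest largely on saline replicate 3, where Fosl1 was not well above background. Among 14924 other named genes, those most like Egr2 were Sh3gl3 at 0.09, Cdc42ep3 at 0.09 and Upb1 at 0.11. Those most like Fos were Anxa7 at 0.08, Me1 at 0.08 and Pde4d at 0.09, and those most like Fosl1, with the same limit, were Hibadh at 0.26, Sap30l at 0.26 and Hkdc1 at 0.28.

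Of the other genes of these families, 0 passed over all genes in limma, in a list of 11 further AP-1 genes with 9 tested and in a list of 4 EGR and NAB genes with 3 tested. At an unadjusted p of 0.05, 1 passed in each list, which is 11.1% of the AP-1 genes and 33.3% of the EGR and NAB genes tested, against 7.46% of all features. Groups did not overlap for 2 of the 9 AP-1 genes (22.2%) and 1 of the 3 EGR and NAB genes (33.3%), against 14.6% of all features. Egr4, a neuronal EGR factor, had normalized log2 signals of 1.25, 1.30 and 1.41 in LDL cells, against 2.12, 1.90 and 1.71 in saline cells. All 3 LDL arrays lay below all saline arrays, as for Egr1 and Egr2, and the log2 fold change of Egr4 was -0.59 (95% interval -0.90 to -0.29, adjusted p = 0.345 in limma). The log2 fold changes of the EGR corepressors were 0.03 for Nab1 and -0.04 for Nab2, and both signs turned with 1 array left out. Among AP-1 genes, the small MAF factors, which lack a transactivation domain, had log2 fold changes of 0.46 for Mafg and 0.65 for Maff (adjusted p = 0.58 and 0.739 in limma). The groups did not overlap for Mafg and overlapped for Maff, which had 0.33 without LDL replicate 1. Jund, the JUN protein of resting cells, had -0.19, and -0.12 without saline replicate 2 and -0.31 without saline replicate 3. Atf2, which pairs with JUN, had -0.25, and its probes ran from -0.25 to 0.11. The median log2 fold change was 0.22 over the AP-1 list and -0.04 over the EGR and NAB list, against -0.03 over all features. The AP-1 median was -0.06 without LDL replicate 1 and 0.07 without the background filter. Over the EGR and NAB list it turned to 0.06 on leaving out saline replicate 1 and to 0.01 on leaving out LDL replicate 3.

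A list of 28 other immediate early genes also had 0 of 26 passing in limma, with 4 (15.4%) at an unadjusted p of 0.05, against 7.46% of all features. Their median was -0.06, and 0.07 without saline replicate 1. Groups did not overlap for 5 of the 26 (19.2%), against 14.6% of all features, 4 with LDL below (8.77% of all features) and 1 with LDL above (5.82%). Log2 fold changes were -0.45 for Trib1, a pseudokinase that directs protein degradation, -0.34 for Klf10, a zinc-finger factor induced by TGF-beta, -0.28 for Btg2, an antiproliferative gene, and 0.26 for Klf4, a Krüppel-like factor. Their adjusted p values in limma lay between 0.331 and 0.576. Nr4a3 and Ptgs2 were well above background on no array.

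Of 18 genes upstream, covering SRF, its ternary complex partners, CREB family members and MAP kinases, 0 of 18 passed in limma and 3 (16.7%) had an unadjusted p below 0.05, against 7.46% of all features, with a median of -0.06. Crem, whose inducible short form represses cAMP-responsive promoters, had 0.54, 0.03 and 0.07 in LDL cells, against -0.45, -0.69 and -0.75 in saline cells. Every LDL array was above every saline array. In this list the groups did not overlap for 4 of the 18 (22.2%), against 14.6% of all features. LDL was above saline for 2 of them (5.82% of all features) and below it for 2 (8.77%). The difference for Crem was 0.85 on the log2 scale, with a 95% interval of 0.45 to 1.24 and an adjusted p of 0.266 in limma, and its probes ran from 0.71 to 0.85. Rps6ka5 (MSK1), a kinase that phosphorylates CREB and histone H3, had a log2 fold change of -0.42, which was -0.28 without saline replicate 1, and the ternary complex factor Elk3 had -0.29, with probes from -0.29 to -0.08. For Rps6ka5 and Elk3 every LDL array lay below every saline array. Mapk10, the JNK isoform of neural tissue, had 0.64. Its groups overlapped (adjusted p = 0.68 in limma), and its probes ran from 0.64 to 0.97. Srf itself had -0.11, and -0.06 without LDL replicate 3.

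The ERK phosphatases and feedback inhibitors had a median of -0.06 over the 9 of 10 tested, with 0 passing in limma. At an unadjusted p of 0.05, 1 passed (11.1%), against 7.46% of all features. That median was 0.06 without saline replicate 1 and -0.12 without saline replicate 2. The log2 fold change of Spry2, an inhibitor of receptor tyrosine kinase signalling, was -0.45, and -0.27 without LDL replicate 2. Those of the phosphatases were 0.49 for Dusp4, -0.33 for Dusp1 and -0.15 for Dusp6, and each depended on single arrays. Dusp4 had 0.26 without LDL replicate 1, Dusp1 had -0.17 without saline replicate 3, and Dusp6 had -0.02 without saline replicate 1. Of 10 genes known as AP-1 targets, 5 were tested, 0 passed in limma and 3 had an unadjusted p below 0.05, against 7.46% of all features. These 3 had every LDL array above every saline array, against 5.82% of all features: Timp1, a metalloproteinase inhibitor, at 0.50, Ccnd1, the cyclin of early G1, at 0.52, and Hbegf, a ligand of the EGF receptor, at 0.62 (adjusted p between 0.515 and 0.635 in limma). Hbegf had 0.38 without LDL replicate 1. Cd44, a hyaluronan receptor, had -0.21, and -0.07 without LDL replicate 1 and -0.35 without LDL replicate 3, and its probes ran from -0.21 to 0.04. The median of the 5 was 0.50, and 0.24 without LDL replicate 1 and 0.27 without saline replicate 2, where 6 were tested, and -0.03 over all 10 without the background filter.

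**Figure D3:**
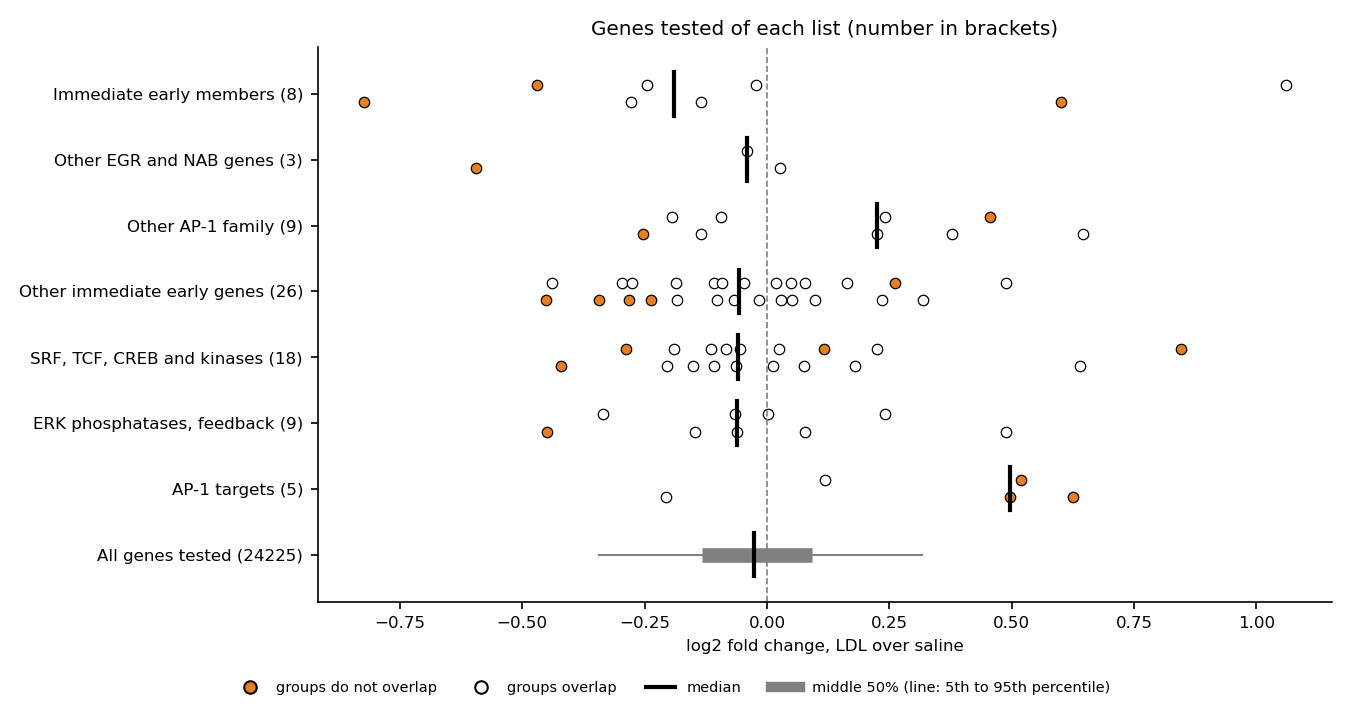
Log2 fold change of LDL over saline (x axis) of each gene tested in 7 lists (rows), filled where the groups do not overlap, with the median of each list as a black bar and the 5th, 25th, 75th and 95th percentiles of all 24225 features tested in grey. List medians run from -0.19 for the immediate early members to 0.50 for the 5 AP-1 targets, which was -0.03 over 10 genes without the background filter, while 0 genes of these lists passed in limma.

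Markers of other cell types were read beside these values. Of 6 astrocyte markers, all 6 were tested, and their summed signal relative to the 75th percentile was 3.11 to 3.45 in LDL cells and 3.52 to 4.01 in saline cells. The groups did not overlap, with LDL below. The median log2 fold change of the 6 was -0.21, and -0.088 without saline replicate 1. Of the 6, 5 were lower in LDL cells, with -0.36 for S100b, -0.26 for Slc1a2, -0.22 for Aldh1l1, -0.21 for Aqp4 and -0.18 for Gja1. For each of these 5 the LDL and saline arrays overlapped, with adjusted p between 0.732 and 0.879 in limma. Gfap, the astrocyte filament gene, went the other way. Gfap was the only one of the 6 to pass in limma, at a log2 fold change of 1.35 (adjusted p = 0.0225), although its tested probes ran from 0.15 to 1.35. It passed in 9 of 19 settings and not in the other 10, among them the replicate block (adjusted p = 0.126), slide row as a block (0.0743), no background filter (0.168), the mean over probes (0.75 on the log2 scale, adjusted p = 0.312) and 5 of the 6 settings with 1 array left out. Without LDL replicate 1 another Gfap probe was the brightest and gave 0.31, while the probe used on 6 arrays gave 1.42. The summed signals of neuronal markers (24.8 to 28.0 in LDL cells and 25.3 to 33.3 in saline cells, 6 of 8 tested), of oligodendrocyte markers (8.65 to 11.6 and 7.61 to 15.03, 4 of 4), of microglia markers (4.58 to 5.34 and 3.62 to 5.84, 3 of 6) and of endothelial markers (0.366 to 0.383 and 0.366 to 0.429, 2 of 4) overlapped between LDL and saline cells. These sums add linear signals, so the brightest probes of a list weigh most, as Csf1r did among the microglia markers. The log2 fold changes of the 3 tested were 0.04 for Csf1r, -0.23 for Cx3cr1 and -0.41 for Tmem119 (adjusted p = 0.519 in limma). For Tmem119 every LDL array lay below every saline array, against 8.77% of all features. P2ry12, Cdh5, Dcx and Neurod1 were well above background on no array. The part of the astrocyte markers in the immediate early values was not tested.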

How the data were processed

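RNA of 6 cultures was hybridized on 1-colour Agilent arrays. The deposited scanner values are intensity values, which Agilent Feature Extraction 10.7.3.1 had background-corrected and detrended within each array, per the file headers. The authors also deposited log2 values, aligned between arrays by a method not given in the sources used here; the submitters' processing notes list R 3.4.4 and limma 3.34.9. These values correlated with log2 of the scanner values across spots at 0.987 to 0.993 and had column medians of 6.74 to 6.76.

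For the main values, the processed signal was divided by its array's 75th percentile and put on the log2 scale. Spots that were controls or carried an outlier flag were left out, except where all spots of a probe were flagged. Spots of a probe were averaged. A probe was tested if at least 50% of its spots were well above background on all 3 arrays of a group (32993 of 55681 probes). Accessions were matched to a gene table of GRCm38.p6, used for names (28331 matched). A gene was represented by its brightest probe, which gave 24225 features. The comparison used lmFit and eBayes of limma 3.58.1 (R 4.3.3), without covariates, after the script was tested on simulated data. In that simulation it called 8% of changes of 0.5 on the log2 scale, 63% of changes of 1 and 90% of changes of 2. A gene that did not pass is therefore not shown to be unchanged. With 3 arrays against 3, the smallest p of an exact permutation test is 0.1. The number of arrays limits the precision.

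The members, lists and tests were chosen with earlier results of these data known. All members were named, with up to 4 genes of smallest p per pathway list, defining markers, any other gene that passed, and the 3 nearest genes of the 3 members of widest range. Fos and Egr2 promoters were chosen after their values were seen. One marker result is not reported here. Figures were drawn with matplotlib 3.10.9.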

Additional observations from a re-analysis of the deposited data

How the results depend on the processing

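No member passed in limma under any of the 19 settings, and the smallest adjusted p, 0.168 for Egr2, came with trended robust variances. Egr1 stayed between -0.54 and -0.33 and Egr2 between -0.95 and -0.68, each with an unadjusted p below 0.05 in 19 of 19 settings, and Fos between 0.44 and 0.79, in 15 of 19. The median of the members was -0.19, and -0.077 with normexp and quantile normalization and -0.084 with the authors' values. It ran from -0.23 to -0.12 with 1 array left out. Jun turned to 0.016 with median scaling and ran from -0.14 to 0.063 with 1 array left out, and was above 0 on leaving out LDL replicate 2, LDL replicate 3 or saline replicate 1. The cause was not tested. Normexp used the median spot signal in place of the mean. Requiring all 6 arrays above background removed Fosl1, and the median over the remaining 7 members was then -0.24. Keeping outlier-flagged spots, chosen after seeing the data, gave Fos 0.60. The count over all features was 29, against 3 with replicate number as a block, 14 with slide row as a block, 55 with trended robust variances, 0 without the background filter (1773 at an unadjusted p of 0.05) and 0 in slide row 1 (874). With 1 array left out it ran from 0 to 29. It was 17 without LDL replicate 1 and 0 without saline replicate 2, saline replicate 3, LDL replicate 2 or LDL replicate 3, where 995 to 3883 features had an unadjusted p below 0.05 and the test has fewer degrees of freedom. With the replicate block 0 members passed, every fold change was as without it, and Egr2 had -0.82 (adjusted p = 0.203). The unadjusted p of Fos in limma was then 0.0019 (adjusted p = 0.288), against 0.0249 without the block. Across genes, the correlation of deviations between LDL and saline arrays of one number was 0.21, -0.04 and 0.18. Between arrays of different numbers it ran from -0.23 to 0.08, so numbers 1 and 3 had the highest values. The labels name no covariate, and pairing was not assumed in the main fit. Fosl1, Egr3 and Ier3 lay near background, which limits what these arrays can show of them.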
